A study of Saccharomyces cerevisiae x Saccharomyces paradoxus and Saccharomyces cerevisiae and Saccharomyces paradoxus with 10 samples.

Results

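The 200 protein-coding frames described here are the fastest evolving of those budding yeast genes that carried a systematic name but no standard gene name in the authors' table. Of 4637 genes in the table, 443 had no standard name. Of these, 3 were set aside by name and 1 because the authors marked it for ploidy or mating type, which left 439 frames. They were ranked by omega, the ratio of amino acid changing to silent substitutions between Saccharomyces cerevisiae and Saccharomyces paradoxus that the authors deposited for each gene, and the 200 highest are called the fast-evolving frames below. The other 239 frames are called the slower unnamed frames. Omega comes from sequence and not from the coverage values, so the levels and ratios below played no part in the ranking. Omega ran from 0.104 to 0.753 (median 0.151) in the fast-evolving frames, and from 0.00416 to 0.103 (median 0.0620) in the slower ones.

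In a hybrid of both species and in its parents, poly-A selected mRNA was sequenced alongside ribosome-protected fragments (RPF), the short pieces left when nuclease digests mRNA outside translating ribosomes. The hybrid was a diploid from a cross of BY4176, a MAT-alpha lys2 ura::KAN strain of S. cerevisiae, with CBS432, a MATa ura::HYG strain of S. paradoxus. The parental samples came from the same strains, with S. cerevisiae BY4176 labelled haploid and S. paradoxus CBS432 labelled diploid, while the text with the mixed mRNA library has both as haploid. All cultures grew from single colonies in YPD, a rich medium, at 30 °C. There were 2 samples of hybrid RPF, 2 of hybrid mRNA, 3 of parental RPF and 3 of parental mRNA, which the authors combined into 2 replicates for each of the 4 settings. Parental RPF came from mixtures of both parents, with 1 replicate run in 2 lanes. Parental mRNA came from 1 mixed library and from 1 library of each parent, and which replicate was the mixed one is not given in the labels. Ploidy, mating type and species cannot be told apart in the parental comparison, and the whole study rests on 1 strain of each species. The labels do not say which replicates were separate cultures, so p-values measure the spread between these samples only.

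In the hybrid both alleles share 1 nucleus and 1 cytoplasm, so a difference between them is one that the alleles carry themselves (in cis). A difference between the parents can also come from anything else that differs between the cells. RPF coverage of a gene follows both its mRNA and how densely ribosomes occupy that mRNA, and the ratio of RPF to mRNA is commonly read as translational efficiency. In yeast, genes with little mRNA and protein tend to change faster in evolution than abundantly expressed ones, and many of those that still lack a standard name have products of unknown role.

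The 5 highest values of omega belonged to YIL100W (0.753), YBR184W (0.599), YGL149W (0.527), CNM1 (YBR063C, 0.513) and YPR071W (0.509). Cnm1 tethers the nuclear membrane to mitochondria, Ypr071w is a putative membrane protein, and R64 gives no role to the products of YBR184W and YGL149W. Just inside the threshold stood COQ11 (YLR290C, 0.106), LAM5 (YFL042C, 0.106), YNL058C (0.105), DRN1 (YGR093W, 0.104) and DPI35 (YMR130W, 0.104). Just outside it stood YNL092W (0.103), CSA1 (YPR174C, 0.103), YLR287C (0.101), MPO1 (YGL010W, 0.100) and YEL023C (0.100).

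Of the fast-evolving frames, 199 were found in the R64 annotation of S. cerevisiae (RefSeq) by systematic name, YIL100W being the exception, as were all 239 slower ones. R64 now gives a gene symbol to 85 of the fast-evolving and 112 of the slower frames. The product was still given only as an uncharacterized protein for 99 fast-evolving frames (49.7% of 199), against 91 slower ones (38.1% of 239). Median protein length was 324 residues in the fast-evolving and 374 in the slower frames. A hydrophobic window long enough to cross a membrane occurred in 59 fast-evolving and 86 slower frames, and 35 and 41 had a mitochondrial note in R64. A median of 37.4% of codons in the fast-evolving frames, 39.0% in the slower ones and 39.6% over all genes were the codon most used for that amino acid by the 100 genes with the most mRNA, a measure added after the values were seen. Only 4 fast-evolving frames overlapped another coding gene, all on the opposite strand, namely YGL149W, YML096W, DPC13 (YGL041W-A) and YGR017W. Whether coverage was counted by strand is not stated in the sources used here, so reads of these 4 and of their partners may be mixed. At 12 fast-evolving and 11 slower frames some 25-base stretch of the coding sequence occurred elsewhere in the R64 genome, at most 5.41% of such stretches in a fast-evolving frame (AIP5, YFR016C).

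The first 60 coding bases of 10 frames described below are printed here from R64. No ratio or call below was computed from these bases. The frames are the 4 called for allele-specific translational efficiency (YOL014W, YDL109C, YIR016W and YNL046W), frames at either end of the RPF-to-mRNA ratio (CNM1, YKR075C and YPR063C), the frame with the most mRNA (YGR035C), and a frame lower and a frame higher for S. cerevisiae in every comparison (ARO5 and DPI35). Capitals mark the ATG codons that stand in frame. Their coding regions lie at II:366970-368184 on the minus strand (CNM1), VII:557072-557422 minus (YGR035C), XV:299693-300067 plus (YOL014W), XIV:542304-542822 plus (YNL046W), VII:288512-289309 plus (ARO5, YGL117W), IX:382628-383425 plus (YIR016W), IV:265258-267201 minus (YDL109C), XI:579827-580750 minus (YKR075C), XVI:677812-678320 minus (YPR063C, which has an intron) and XIII:532119-533027 plus (DPI35).
CNM1: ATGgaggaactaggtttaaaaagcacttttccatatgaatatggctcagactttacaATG
YGR035C: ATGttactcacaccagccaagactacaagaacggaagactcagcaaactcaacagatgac
YOL014W: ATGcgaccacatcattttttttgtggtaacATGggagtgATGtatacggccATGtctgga
YNL046W: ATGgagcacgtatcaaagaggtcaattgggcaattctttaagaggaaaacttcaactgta
ARO5: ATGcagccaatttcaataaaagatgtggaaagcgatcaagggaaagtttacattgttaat
YIR016W: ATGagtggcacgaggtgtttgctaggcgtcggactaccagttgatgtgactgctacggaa
YDL109C: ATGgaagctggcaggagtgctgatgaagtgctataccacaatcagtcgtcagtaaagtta
YKR075C: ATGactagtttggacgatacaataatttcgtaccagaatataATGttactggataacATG
YPR063C: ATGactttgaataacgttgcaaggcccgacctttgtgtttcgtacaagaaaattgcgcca
DPI35: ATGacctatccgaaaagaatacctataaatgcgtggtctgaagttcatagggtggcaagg
In YOL014W 4 in-frame ATG codons stand within the first 20 codons, and in YKR075C 3. More than 1 such ATG was found in 53 fast-evolving frames (26.6% of 199), against 50 slower ones (20.9% of 239). A later ATG is no evidence that ribosomes start there.

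The fast-evolving frames had lower median levels of mRNA and of RPF than the slower unnamed frames. Coverage (the number of bases of all reads that fall on a gene) was expressed in ppm (parts in 1000000) of the total of its column and divided by the unmasked length in kb, so that genes of different length can be compared. The median mRNA level was 64 ppm per kb in the fast-evolving frames, 104 in the slower unnamed frames and 120 over all genes. The median RPF level was 25.3, 51.6 and 70.1 ppm per kb in the same order. The medians of the fast-evolving frames lay below those of the slower frames in all 8 mRNA columns and all 8 RPF columns. In mRNA they ran from 50.4 to 67.7 ppm per kb, against 87.3 to 117 in the slower frames, and the ratio of both medians was 0.601 ± 0.023 (SD over 8 columns). In RPF they ran from 20.1 to 24.1 ppm per kb, against 44.8 to 56.7, and the ratio was 0.445 ± 0.018 (SD over 8 columns). No test was made between these sets of frames, because frames are not replicates. Nor are the 8 columns independent, since a hybrid or mixed library gives a column for each species and the same frames recur. The SD describes the spread over columns only. Total coverage per column lay between 60.6 and 167 Mb, and how many reads stood behind it is unknown. The authors tested translation in cis only for genes with at least 100 reads. That held for 89 of the 200 fast-evolving frames (44.5%), 166 of the 239 slower ones (69.5%) and 3662 of 4637 genes (79.0%).

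**Figure D1:**
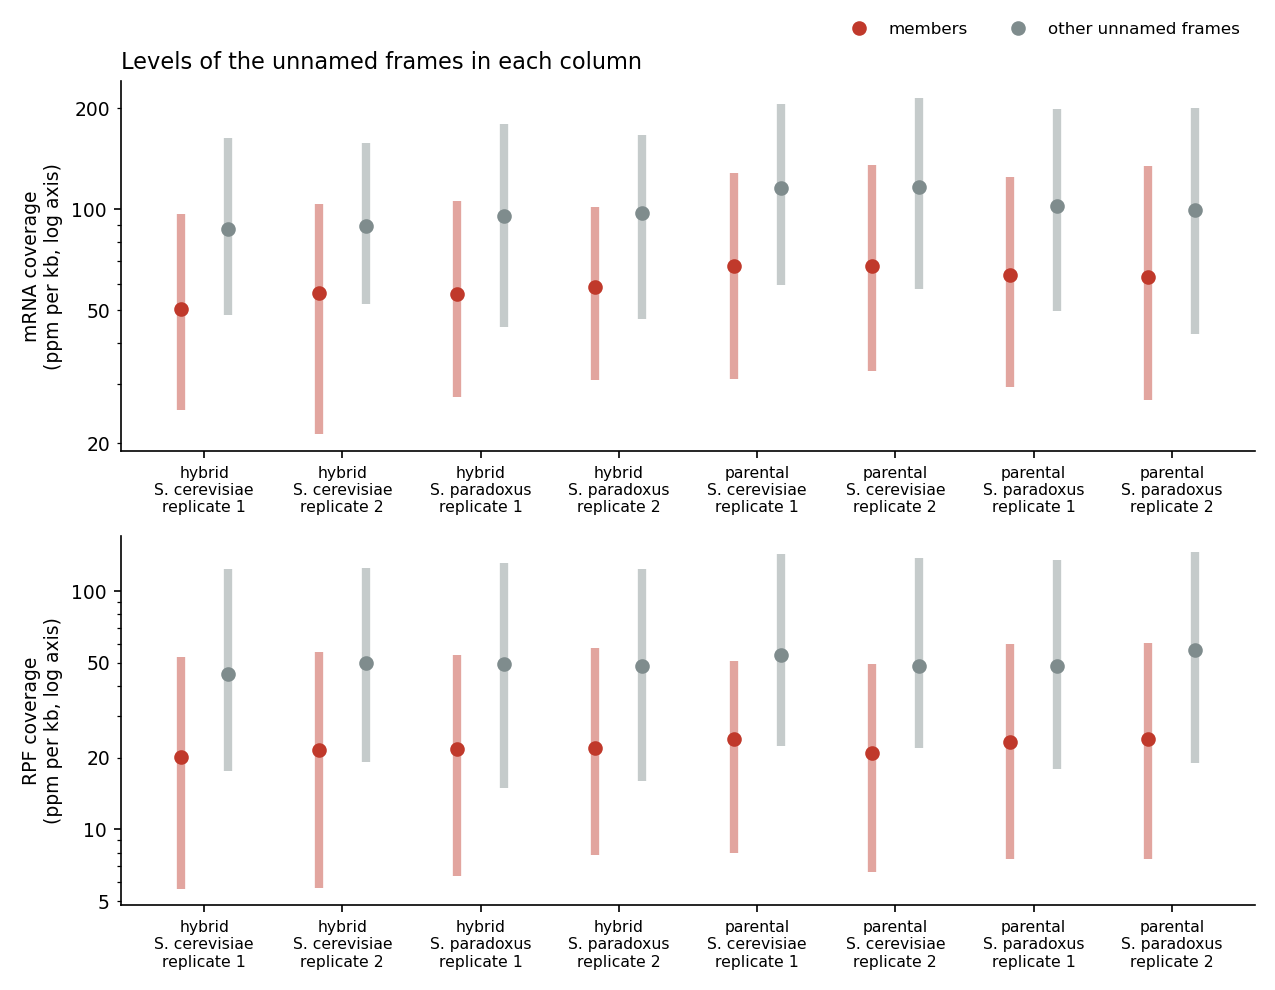
Level of the fast-evolving frames (members, red, 200) and the other unnamed frames (grey, 239) in each of the 16 columns of mRNA (above) and RPF (below), in ppm per kb on a log axis. Points are medians and bars run from the lower to the upper quartile, and in every column the red median lies below the grey one.

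Levels were also lower at higher omega inside the set. The 100 frames of highest omega had medians of 54.2 ppm per kb in mRNA and 17.5 in RPF, against 78.2 and 30.3 in the 100 that follow them. Across the 413 unnamed frames with a mean coverage of at least 3 ppm, omega had a Spearman rho of -0.30 with the mRNA level and of -0.34 with the RPF level. Within the 182 fast-evolving frames among them these were -0.28 and -0.33. Both are descriptions across genes, which share libraries and are not independent.

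Coverage of at least 3 ppm, averaged over the 16 columns, was required before a gene entered a test, and 182 of the 200 fast-evolving frames, 231 of the 239 slower ones and 4544 of all genes had it. YGL149W was listed at 0 in all 16 columns. It had only 103 unmasked bases and lies opposite another gene. YIL100W, the frame of highest omega, was listed at 0 in all 4 hybrid RPF columns, and its highest value was 3.49 ppm, in parental S. cerevisiae mRNA replicate 1. Also below 3 ppm were NRS1 (YLR053C), BIL2 (YGL015C), SPR2 (YOR214C, a sporulation gene), HAB1 (YBR285W), PHO92 (YDR374C, an mRNA-binding protein), YOR186W, YGL230C, YPR078C, YDL114W, YGL138C, YMR206W, YOL131W, YHL012W, YML083C, YLR012C and YPR027C. In all, 35 fast-evolving frames, 21 slower ones and 261 genes of the table were listed at 0 in at least 1 RPF column.

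A few of the frames were abundant. YGR035C, a paralog of CIS1 that the drug-resistance factors Yrm1 and Yrr1 activate, had the most mRNA, with a mean RPF level of 792 ± 387 and a mean mRNA level of 1915 ± 830 ppm per kb (SD over 8 columns of both species and both strains). YKR075C, a Reg1-like protein whose expression follows glucose, had 110 ± 53.5 in RPF and 978 ± 259 ppm per kb in mRNA. CIS1 (YLR346C), found in mitochondria and under the drug-resistance factors Pdr1 and Yrr1, had 213 ± 175 and 818 ± 641 ppm per kb. Both YGR035C and CIS1 differed between the species, as described below. YPR063C, an ER protein of unknown role, had 979 ± 255 and 595 ± 121 ppm per kb. With coverage scaled by column totals, it was the only one of the 8 highest in mRNA that was called with more RPF than mRNA. The remaining 4 of these 8 were YPL199C (nonstop mRNA decay) at 284 and 478, YCR087C-A (a nucleolar zinc binder) at 464 and 470, EMC10 (YDR056C, a subunit of the ER membrane complex that inserts membrane proteins) at 403 and 399, and YGR017W (related to pyridoxamine-phosphate oxidases) at 128 and 346 ppm per kb of RPF and mRNA.

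The RPF-to-mRNA ratio of most of these frames was low. Within the hybrid and within the parents, the log2 of coverage averaged over both species was compared between RPF and mRNA with limma over all 4544 genes, and a gene was called at a Benjamini-Hochberg adjusted p under 0.05. In the hybrid 140 of 182 fast-evolving frames were called, 4 with more RPF and 136 with less, where 72.1% of all genes were called, 11% with more and 61.1% with less. In the parents 171 were called, 4 with more RPF and 167 with less, where 84.3% of all genes were called, 12.1% with more and 72.2% with less. The 4 with more RPF were the same in both, namely YPR063C, YPL229W, YJL068C and NCW2 (YLR194C). Of the 231 slower frames, 17 were called with more RPF in the hybrid and 16 in the parents.

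The 0 of this ratio is set by the column totals, and the median log2 ratio of all genes was -0.67 in the hybrid and -0.75 in the parents by column totals, and -0.02 and 0.01 under median-of-ratios scaling. Distances from that median are therefore given. The median log2 ratio of the fast-evolving frames was -1.14 in the hybrid, 0.47 below that of all genes, and -1.41 in the parents, 0.66 below. Under the other scaling these distances were 0.48 and 0.67. Under that scaling 24 fast-evolving frames were called with more RPF and 85 with less in the hybrid, and 22 and 114 in the parents. Of all 4544 genes, 1402 were called with more and 1376 with less in the hybrid, and 1707 and 1603 in the parents. The slower frames had medians of -0.78 in the hybrid and -0.86 in the parents. In single replicates the fast-evolving frames stood 0.32 and 0.42 below the slower ones in the hybrid and 0.52 and 0.54 below them in the parents.

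The ratio itself followed coverage, with a Spearman rho against the mRNA level of 0.53 in the hybrid and 0.44 in the parents over the 413 unnamed frames, so frames of like coverage were set side by side. Between 3 and 30 ppm, 50 fast-evolving frames, 35 slower ones and 468 genes had median log2 ratios of -1.43, -1.52 and -1.53 in the hybrid, and of -1.68, -1.56 and -1.64 in the parents. Between 30 and 100 ppm, 96 fast-evolving frames had -1.21 in the hybrid and -1.45 in the parents, against -0.94 and -1.15 in 106 slower frames and -1.03 and -1.16 in 1657 genes. At 100 ppm and more, 36 fast-evolving frames had -0.52 in the hybrid and -0.87 in the parents, against -0.33 and -0.43 in 90 slower frames and -0.30 and -0.34 in 2419 genes. The medians lay close together in the lowest band, and the fast-evolving frames had the lower medians in both upper bands. The bands did not fully match the mRNA level. Its medians, in the same order, were 71.8, 91.2 and 82.0 ppm per kb between 30 and 100 ppm, and 217, 213 and 235 at 100 ppm and more. Over the 413 unnamed frames, omega had a rho of -0.24 with the ratio in the hybrid and -0.32 in the parents. Within the 182 fast-evolving frames these were -0.22 and -0.29. The percentage of favoured codons had a rho over the 413 frames of 0.40 and 0.43 with the ratio and -0.32 with omega. Within the 182 fast-evolving frames these were weaker, at 0.21, 0.21 and -0.18. How far coverage and codon use account for the relation with omega was not tested.

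**Figure D2:**
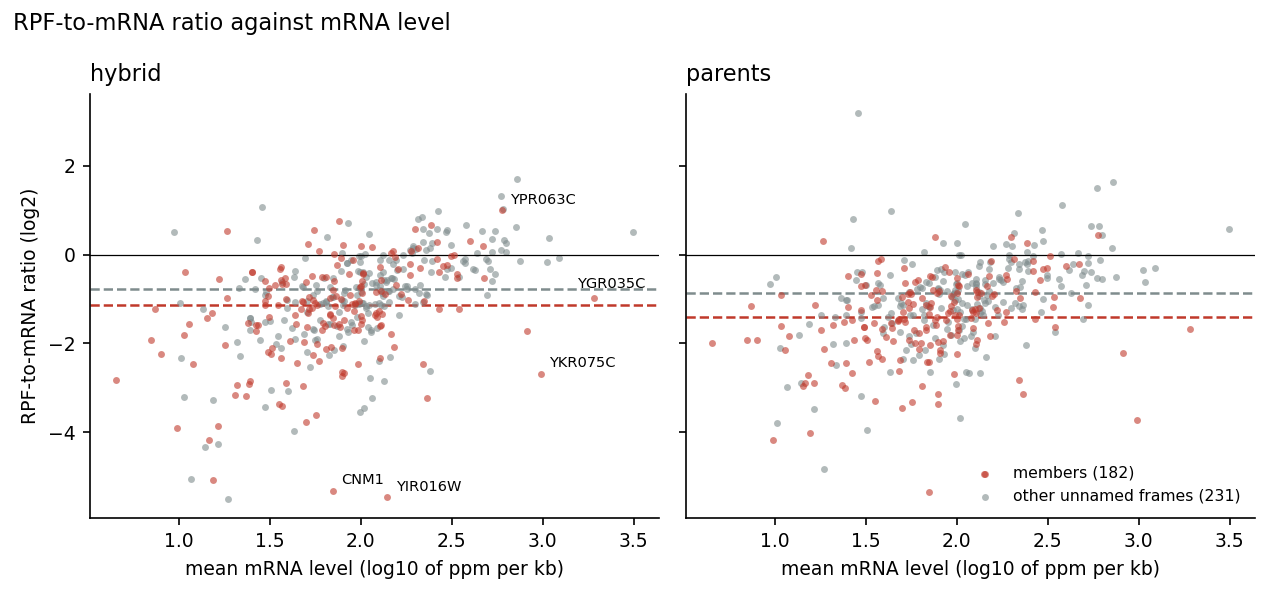
RPF-to-mRNA ratio (log2) against the mean mRNA level (log10 of ppm per kb) for fast-evolving frames (members, red, 182) and slower unnamed frames (grey, 231) in the hybrid (left) and in the parents (right). Dashed lines are the medians, at -1.14 and -0.78 in the hybrid and -1.41 and -0.86 in the parents, and among the fast-evolving frames CNM1 and YIR016W lie farthest below.

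The lowest ratios at a mean coverage of at least 20 ppm belonged to CNM1 and YIR016W, which had almost no RPF on moderately abundant mRNA. The RPF coverage of CNM1 was 0 and 6.72 ppm for S. cerevisiae and 0 and 10.5 ppm for S. paradoxus in the hybrid, and 1.93, 0.834, 4.02 and 0.543 ppm in the parents, against 67.6 to 96.7 ppm in all 8 mRNA columns. No RPF value reached any mRNA value. The log2 ratio was -5.31 ± 0.82 in the hybrid and -5.35 ± 0.54 in the parents (SE, n = 2, adjusted p = 5.1e-05 and 3.0e-07, limma), and the hybrid value was -3.22 without RPF replicate 1, where both alleles are listed at 0. YIR016W, under the meiotic and metabolic regulator Ume6, was as low, with 0 to 5.58 ppm in the 8 RPF columns, 64.7 to 129 ppm in the 8 mRNA columns and log2 ratios of -5.46 ± 0.43 and -4.93 ± 0.28. Its paralog YOL036W, also a fast-evolving frame, had an RPF level of 54.6 and an mRNA level of 132 ppm per kb, and a log2 ratio of -1.21 in the parents.

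LPX2 (YKL050C, a lipase of the peroxisome matrix) had log2 ratios of -5.08 in the hybrid and -4.01 in the parents. MPF1 (YNL144C, which helps distribute tail-anchored proteins between mitochondria and peroxisomes) had -3.77 and -3.46. The other frames among the 8 lowest at 20 ppm or more were YLR152C at -3.62 and -3.32, YCX1 (YDL206W, involved in calcineurin activation) at -3.36 and -3.29, YKR075C at -2.68 and -3.73 and its paralog YOR062C at -3.24 and -3.15. YKR075C and YOR062C share no 25-base stretch of coding sequence.

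At the other end, YPR063C had 250 and 253 ppm of RPF coverage for S. cerevisiae and 370 and 492 ppm for S. paradoxus in the hybrid, against 157, 129, 206 and 189 ppm of mRNA coverage. All 4 RPF values exceeded all 4 mRNA values. Its log2 ratio was 0.44 ± 0.09 in the parents and 1.00 ± 0.14 in the hybrid (adjusted p = 0.00048 and 2.3e-05, limma). YPL229W had 0.40 in the parents and 0.75 in the hybrid. YJL068C, an S-formylglutathione hydrolase of formaldehyde detoxification, had 0.40 in the parents and 0.57 in the hybrid, and NCW2, a GPI-anchored protein of cell wall assembly, 0.26 in the parents and 0.67 in the hybrid. The calls of YPL229W in both strains, and of NCW2 in the parents, were lost when single replicates were left out (YPL229W at 0.49 without hybrid RPF replicate 2 and 0.26 without parental RPF replicate 1, and NCW2 at 0.19 without parental RPF replicate 1). HTC1 (YPL067C), LOG1 (YJL055W), YPL108W and YHR127W, the next highest of the frames called in either strain at 20 ppm or more, were called with less RPF in the parents, at -0.43, -0.30, -0.52 and -0.49, a sign that turned under median-of-ratios scaling. LOG1 was not called without parental RPF replicate 1, nor YPL108W without parental mRNA replicate 2 or parental RPF replicate 2.

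Alleles in the hybrid differed in mRNA for 68 of 182 fast-evolving frames, with the S. cerevisiae allele above in 25 and below in 43, against 99 of 231 slower frames (50 and 49). Over all genes 35.8% were called, 16.9% with S. cerevisiae above and 19% with it below, so the number of calls in the fast-evolving frames (37.4%) was near the background. In RPF 40 were called (22.0%), 16 with S. cerevisiae above and 24 with it below, against 38 slower frames (23 and 15). Over all genes 13.1% were called in RPF, 6.05% with S. cerevisiae above and 7.02% with it below. The median size of the difference, called or not, was 0.37 on the log2 scale in mRNA for the fast-evolving frames, 0.30 for the slower ones and 0.25 for all genes, and 0.56, 0.41 and 0.33 in RPF. In bands of mean coverage, the mRNA sizes in the same order were 0.48, 0.53 and 0.55 between 3 and 30 ppm. They were 0.38, 0.27 and 0.29 between 30 and 100 ppm, and 0.22, 0.28 and 0.20 at 100 ppm and more. In mRNA the fast-evolving frames thus exceeded the slower ones only in the middle band. The RPF sizes were 1.02, 0.48 and 0.82, then 0.52, 0.47 and 0.41, then 0.32, 0.31 and 0.26. Replicates of the fast-evolving frames also differed more than those of all genes, by a median of 0.23 against 0.17 in hybrid mRNA and 0.59 against 0.35 in hybrid RPF. The part of this replicate spread in the larger differences was not tested. Without replicate 2 of hybrid mRNA the 68 calls became 40, without replicate 2 of hybrid RPF the 40 calls became 13, and with 1 spread for all settings they became 31 and 61. Over all genes, 1 spread for all settings turned 1629 mRNA calls into 555 and 594 RPF calls into 1131.

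**Figure D3:**
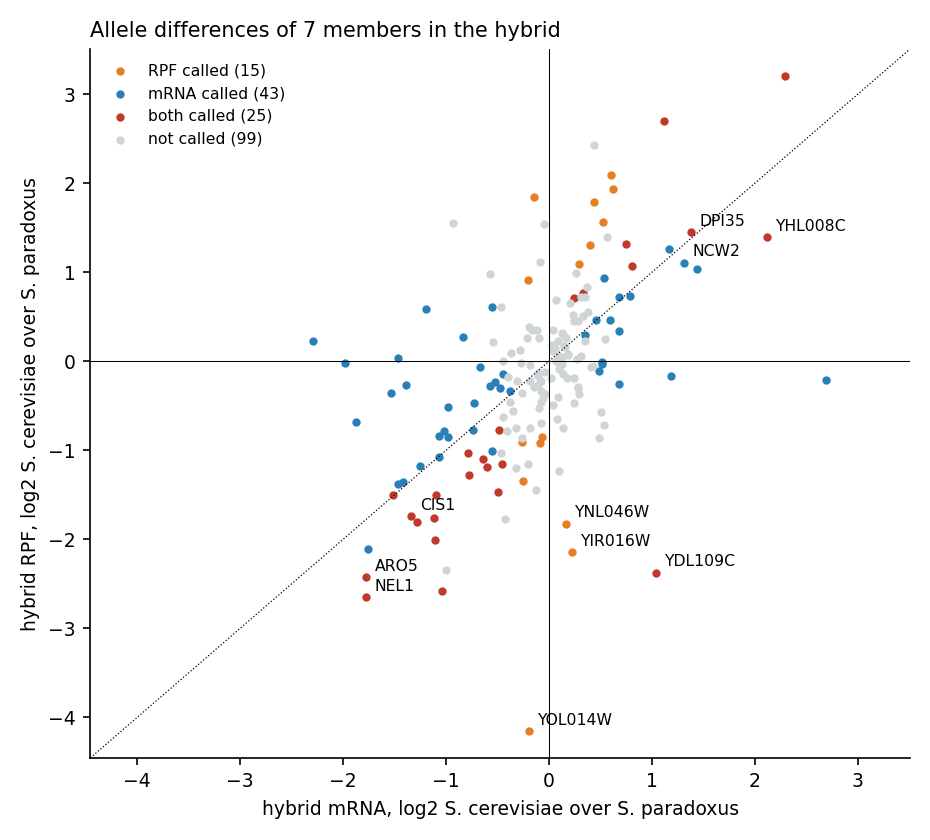
Allele difference in the hybrid for the 182 fast-evolving frames tested, RPF (vertical) against mRNA (horizontal), both as log2 of S. cerevisiae over S. paradoxus. Colours mark which of both was called, and YOL014W, YIR016W, YNL046W and YDL109C lie far below the dotted line of equal differences.

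Of the 25 frames called in both mRNA and RPF, 24 had the same direction in both, YDL109C being the exception. They are 62.5% of the frames called in RPF and 36.8% of those called in mRNA. Over all genes 402 of 411 had the same direction, and the shares were 69.2% and 25.2%. Differences of all 182 frames had a Spearman rho of 0.57 between mRNA and RPF. The authors' deposited table, from their own test of genes with at least 100 reads, called an mRNA difference in cis for 108 of 168 fast-evolving frames (46 with S. cerevisiae above and 62 with it below), for 152 of 224 slower frames and for 2734 of 4433 genes.

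ARO5 (YGL117W), which takes part in aromatic amino acid synthesis and is induced by Gcn4, was lower for S. cerevisiae in all 4 settings. Its RPF coverage in the hybrid was 7.02 and 9.25 ppm for S. cerevisiae, against 46.0 and 45 ppm for S. paradoxus, and its mRNA coverage 20.9 and 18.7 against 78.0 and 60.6 ppm. In the parents RPF coverage was 6.78 and 4.34 ppm against 56.7 and 79.4 ppm, and mRNA coverage 39.5 and 45.7 against 149 and 171 ppm. The species did not overlap in any setting. The log2 differences were -2.43 ± 0.32 in hybrid RPF, -1.77 ± 0.16 in hybrid mRNA, -3.51 ± 0.31 in parental RPF and -1.90 ± 0.17 in parental mRNA (SE, n = 2 per setting, adjusted p at most 0.00017, limma).

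NEL1 (YHR035W), a Sec23 paralog that activates the Sar1 GTPase, was lower for S. cerevisiae in hybrid RPF (7.72 and 2.53 ppm, against 36.8 and 25.7 ppm for S. paradoxus, log2 difference -2.65 ± 0.43) and in hybrid mRNA (20.8 and 22.1 against 79.1 and 71.0 ppm, -1.78 ± 0.21). It was also lower in the parents, by -1.88 in RPF, a call lost without parental RPF replicate 2 (-1.08), and by -1.37 in mRNA. YLR326W, a protein of the cell periphery, had 35.0 and 16.1 ppm of hybrid mRNA for S. cerevisiae against 89.6 and 88.2 ppm for S. paradoxus, a log2 difference of -1.88 ± 0.21. Its RPF difference of -0.68 ± 0.42 was not called. YMR187C (-1.51), YPL216W (a paralog of the chromatin protein ITC1, -1.46) and YGR153W (-1.42) were the next lowest in mRNA. YGR153W was not called without hybrid mRNA replicate 2 (-1.13) or with 1 spread for all settings.

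YHL008C, a vacuolar protein that may take up chloride, gave the widest hybrid mRNA difference towards S. cerevisiae at 20 ppm or more, with 128 and 172 ppm of hybrid mRNA for that allele against 27.0 and 42.9 ppm for the S. paradoxus allele, and 33.9 and 30.0 against 9.63 and 14.8 ppm of RPF. The alleles did not overlap. Its log2 difference was 1.40 ± 0.30 in RPF and 2.12 ± 0.15 in mRNA (adjusted p = 0.0074 and 6.8e-08), and the RPF call was lost without replicate 1 (1.01). DPI35, a putative mitochondrial protein, had 42.2 and 42.9 ppm of hybrid RPF for S. cerevisiae against 13.8 and 16.7 for S. paradoxus, and 100.2 and 116 against 45.9 and 36.5 ppm of mRNA. Its log2 differences were 1.46 ± 0.33 and 1.38 ± 0.16, with the RPF call lost without either replicate although the difference remained at 1.33 or more. YBR197C (1.44), NCW2 (1.31), MPF1 (1.19) and YOR097C (1.17) completed the frames named as higher in hybrid mRNA.

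In hybrid RPF, RCI50 (YKL133C, a mitochondrial paralog of MGR3) was lower for S. cerevisiae, with 0.974 and 2.38 ppm against 10.1 and 13.8 ppm for S. paradoxus and a log2 difference of -2.58 ± 0.42. Its mRNA differed by -1.03 ± 0.21. Higher for S. cerevisiae were RBH1 (YJL181W, a cell-cycle regulated protein with a PH-like domain) at 2.09, YER137C at 1.79, COQ11 (an oxidoreductase of coenzyme Q synthesis) at 1.56 and LOG1 (which acts with HAM1 against 5-fluorouracil) at 1.32. Not 1 of these 4 was called without hybrid RPF replicate 2, where their differences were 0.62, 0.55, 1.12 and 1.04. Without replicate 1 the first 2 were 3.57 and 3.03, and their S. paradoxus RPF coverage in replicates 1 and 2 was 11.9 and 0.965 ppm in RBH1 and 29.8 and 5.18 ppm in YER137C. Among the frames named for hybrid RPF, the authors' translation test, limited to genes with at least 100 reads, included YOL014W, ARO5, COQ11, DPI35 and LOG1. It did not include NEL1, RCI50, YDL109C, YIR016W, RBH1, YER137C or YHL008C.

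Alleles differed in translational efficiency, the RPF difference minus the mRNA difference, for 4 of 182 fast-evolving frames (2.20%), all with less RPF per mRNA for S. cerevisiae, where 1.47% of all genes were called, 0.682% with S. cerevisiae above and 0.792% with it below. Of the 231 slower frames 3 were called. With 1 spread for all settings 1 frame was called, YIR016W, and leaving out single replicates gave between 2 (without hybrid mRNA replicate 2) and 19 (without hybrid RPF replicate 1). In the authors' deposited table, of 89 fast-evolving frames tested for translation in cis, 33 were called (13 with S. cerevisiae above and 20 with it below), or 37.1%, near the 34.8% over all genes (1276 of 3662). Among these 33 was YOL014W, below for S. cerevisiae, and the remaining 3 frames were not tested there.

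YOL014W, whose product is found in cytosol and nucleus, gave the largest of these differences. Its hybrid RPF coverage was 1.28 and 15.0 ppm for S. cerevisiae, against 99.2 and 117 ppm for S. paradoxus, while its hybrid mRNA coverage was 51.3 and 55.7 against 76.9 and 65.3 ppm. In the parents it was 4.49 and 0.918 against 215 and 174 ppm in RPF, and 59.9 and 77.2 against 184 and 187 ppm in mRNA. The species stood far apart in RPF in all replicates. The log2 differences were -4.15 ± 0.50 in hybrid RPF, -0.20 ± 0.24 in hybrid mRNA, -5.98 ± 0.48 in parental RPF and -1.23 ± 0.27 in parental mRNA, and that in translational efficiency was -3.96 ± 0.55 (adjusted p = 0.0015, limma), or -2.52 without hybrid RPF replicate 1. The authors counted 328 unmasked bases in the S. cerevisiae gene, against 379 in its S. paradoxus ortholog, and 375 bases are coding in R64, so the lengths compared were not the same in both species. The S. cerevisiae frame is the one printed above with 4 ATG codons within its first 20, and whether these bear on its RPF was not tested.

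YDL109C, a putative lipase and paralog of ROG1, had more mRNA but less RPF for the S. cerevisiae allele in the hybrid. Its RPF coverage was 2.88 and 0 ppm against 5.19 and 7.47 ppm for S. paradoxus, and its mRNA coverage 53.0 and 51.3 against 26.0 and 24.4 ppm. The difference in translational efficiency was -3.41 ± 0.66 (adjusted p = 0.017), but was not called without hybrid RPF replicate 2, listed at 0 for S. cerevisiae (-1.79), or without hybrid mRNA replicate 2 (-3.39). Its RPF difference was -0.75 and not called without the same RPF replicate, against -2.37 with it. YIR016W, with hybrid RPF of 0 and 0.429 ppm for S. cerevisiae against 0.949 and 5.39 ppm for S. paradoxus, differed by -2.36 ± 0.36 (adjusted p = 0.0033). These values lie close to the 0.5 ppm added before taking logarithms. YNL046W, an ER protein under Swi5, had 8.32 and 3.68 ppm of RPF against 18.0 and 24.4 ppm, and 39.3 and 38.5 against 38.2 and 31.3 ppm of mRNA, a difference of -1.99 ± 0.43 (adjusted p = 0.031) that was -1.24 and not called without hybrid RPF replicate 2. It was also not called without hybrid mRNA replicate 2 (-1.86) or with the replicate number as a block. In the parents the RPF differences of YDL109C (0.38 ± 0.57), YIR016W (0.65 ± 0.31) and YNL046W (-0.41 ± 0.37) were not called.

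**Figure D4:**
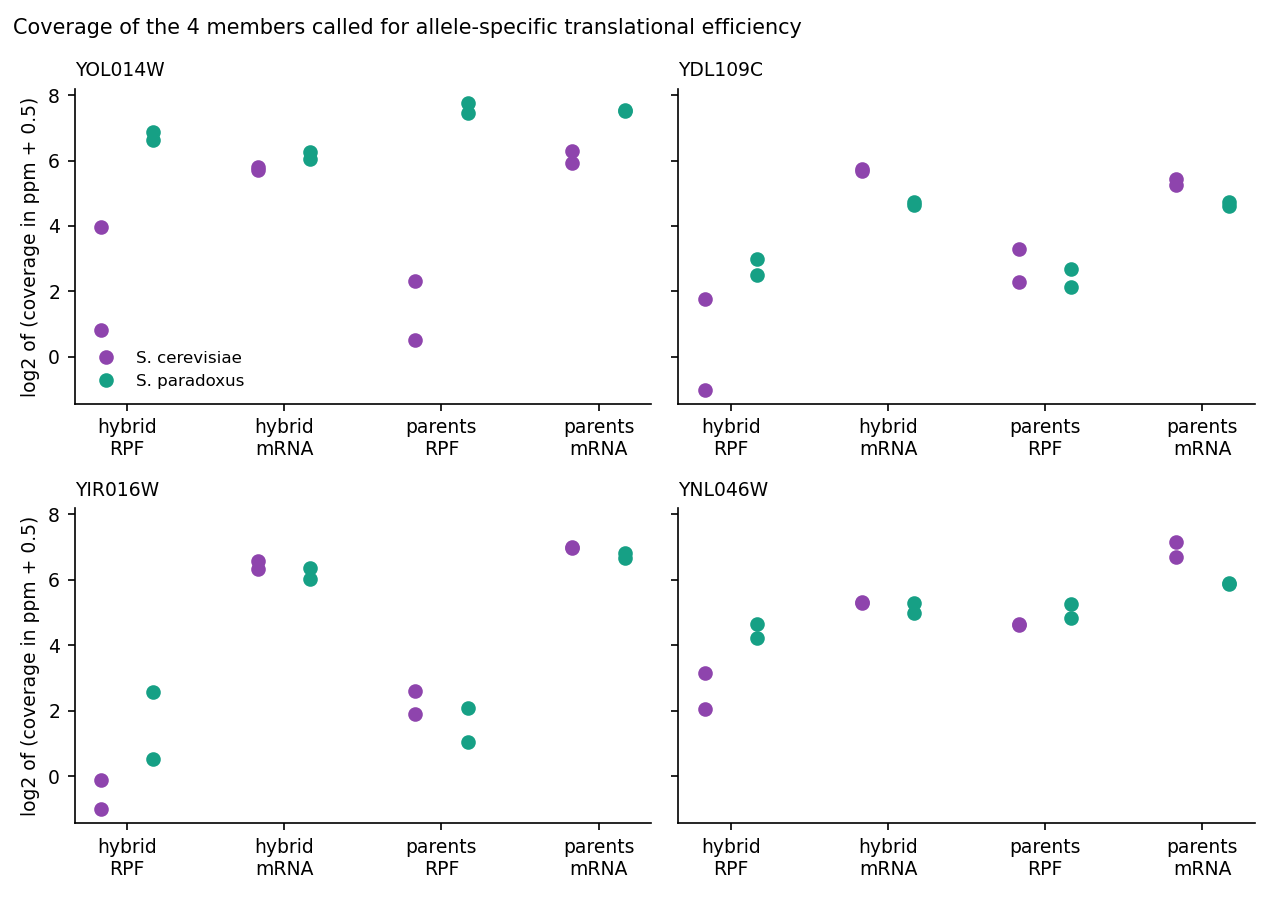
Coverage of YOL014W, YDL109C, YIR016W and YNL046W in each replicate (log2 of ppm plus 0.5) for S. cerevisiae (purple) and S. paradoxus (green), in RPF and mRNA of the hybrid and of the parents. RPF of YOL014W is far lower for S. cerevisiae in both strains, while the species overlap or lie close in parental RPF of YDL109C, YIR016W and YNL046W.

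Between the parents, mRNA differed for 105 of 182 fast-evolving frames, with S. cerevisiae above in 58 and below in 47, where 56.8% of all genes were called, 30% with S. cerevisiae above and 26.8% with it below. RPF differed for 55, with S. cerevisiae above in 21 and below in 34, where 33.4% of all genes were called, 14.6% above and 18.8% below. Both shares, 57.7% and 30.2%, were near the background. Among the slower frames 122 were called in mRNA (76 above and 46 below) and 73 in RPF (47 above and 26 below). The median size of the difference was 0.58 in mRNA for the fast-evolving frames, against 0.43 for the slower frames and 0.43 for all genes, and 0.56, 0.50 and 0.46 in RPF. In bands of mean coverage, the mRNA sizes in the same order were 0.72, 0.60 and 0.77 between 3 and 30 ppm. They were 0.53, 0.40 and 0.415 between 30 and 100 ppm, and 0.51, 0.41 and 0.39 at 100 ppm and more. The RPF sizes were 0.84, 0.63 and 0.79, then 0.49, 0.47 and 0.48, then 0.64, 0.50 and 0.42. Replicates of the fast-evolving frames differed by a median of 0.46 in parental RPF, against 0.33 over all genes. In parental mRNA both were 0.19. All 45 frames called in both mRNA and RPF had the same direction in both, which is 81.8% of the RPF calls and 42.9% of the mRNA calls. This was near the values over all genes, 1196 of 1220 in the same direction, 80.4% and 47.2%. Without a replicate of parental RPF the 55 calls became 26 or 27. With 1 spread for all settings the 105 mRNA calls became 67, and those over all genes fell from 2583 to 1701.

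Among frames of at least 20 ppm the widest parental mRNA differences in either direction belonged to a pair of paralogs, CIS1 and YGR035C. CIS1 had 8.48 and 13.2 ppm of parental RPF for S. cerevisiae against 94.2 and 111 ppm for S. paradoxus, and 47.2 and 66.6 against 455 and 484 ppm of parental mRNA. YGR035C had 256 and 281 against 112 and 83.4 ppm of RPF, and 916 and 931 against 280 and 218 ppm of mRNA. So S. cerevisiae had less of CIS1 and more of YGR035C in every replicate. The log2 differences were -3.22 ± 0.23 in RPF and -3.05 ± 0.13 in mRNA for CIS1, and 1.50 ± 0.23 and 1.93 ± 0.13 for YGR035C (adjusted p at most 0.00015, limma).

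In the hybrid both genes differed less between the species. The parental minus the hybrid difference in mRNA was -1.72 ± 0.17 for CIS1, whose alleles differed by -1.34 ± 0.12, and 1.59 ± 0.17 for YGR035C, whose alleles differed by 0.33 ± 0.12 (adjusted p = 2.3e-06 and 5.3e-06 for the difference of differences). The paralogs share no 25-base stretch of coding sequence. Since R64 notes Pdr1, Yrr1 and Yrm1 as their regulators, the element TCCGCGGA, which reads the same on both strands, and its variant TCCGTGGA (TCCACGGA on the other strand) were searched in the 500 bases before each start codon. At least 1 of them stood before 100 of 6008 coding genes of R64 (1.66%), both paralogs included. The search was made after the values were seen. The sites are shown with 8 flanking bases, the element in capitals, in the direction of the gene, and lie at VII:557825-557848 and VII:557723-557746 (both minus, 418 and 316 bases before the start codon of YGR035C) and at XII:822902-822925 (minus, 325 bases before that of CIS1).
YGR035C, first site: ccgattgtTCCACGGAgggaaaga
YGR035C, second site: gaccctttTCCACGGAtaatcagc
CIS1: cgcctattTCCGCGGAatcaatag
A match of letters is a description of the S. cerevisiae sequence and not a bound site, and the S. paradoxus sequence was not analysed here.

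ROF1 (YHR177W), a WOPR-domain protein similar to the Candida albicans switch regulator Wor1, had 7.41 and 10.5 ppm of parental mRNA for S. cerevisiae against 79.7 and 58.5 ppm for S. paradoxus. In the hybrid it had 34.8 and 41.9 against 51.1 and 43.3 ppm, so its alleles lay close. The log2 difference was -2.87 ± 0.23 in the parents and -0.28 ± 0.21 in the hybrid, and differed between them by -2.59 ± 0.31 (adjusted p = 1.5e-05, limma). In parental RPF ROF1 differed by -1.98 ± 0.41, a call lost without RPF replicate 1 (-1.79).

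YLR108C, a nuclear protein, had 46.0 and 34.5 ppm of parental RPF for S. cerevisiae against 202 and 159 ppm for S. paradoxus, and 149 and 154 against 483 and 412 ppm of parental mRNA, while hybrid mRNA was 371 and 345 against 394 and 375 ppm. The log2 mRNA difference was -1.56 ± 0.10 in the parents and -0.10 ± 0.09 in the hybrid. Its paralog MRX16 (YDR132C, associated with the large mitochondrial ribosomal subunit), with which it shares no 25-base stretch, differed by -1.0 ± 0.16 in parental and -0.98 ± 0.15 in hybrid mRNA. YDL211C, a vacuolar protein, differed by -1.96 ± 0.21 in parental and -0.55 ± 0.19 in hybrid mRNA.

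PAL2 (YHR097C), which acts in clathrin-mediated endocytosis, was higher for S. cerevisiae in the parents, with 136 and 143 ppm of mRNA against 43.3 and 35.9 ppm for S. paradoxus. In the hybrid it had 27.4 and 35.9 against 34.6 and 31.4 ppm, so its alleles overlapped. LOG1 had 298 and 353 ppm of parental RPF against 72.5 and 78.9 ppm, and 382 and 384 against 104 and 117 ppm of parental mRNA, with log2 differences of 2.09 ± 0.20 and 1.79 ± 0.11. Its alleles differed by 0.75 ± 0.10 in hybrid mRNA. DPI35 reached 2.44 ± 0.32 in parental RPF and 1.78 ± 0.18 in parental mRNA. YIL055C (1.86, not called with 1 spread for all settings) and YHL008C (1.77) completed the frames named as higher in parental mRNA, and YMR262W (1.75), YMR155W (1.62) and YOR097C (1.33, not called without either RPF replicate) those in parental RPF. Among frames under 20 ppm, and chosen after its values were seen, YHR140W had the widest parental mRNA difference of the set, 36.8 and 50.2 ppm for S. cerevisiae against 2.04 and 2.24 ppm for S. paradoxus, at 11.9 and 10.8 against 10.1 and 15.0 ppm in the hybrid.

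NCW2 differed in opposite directions. In hybrid mRNA the S. cerevisiae allele had 158 and 185 ppm against 83.1 and 57.2 ppm for S. paradoxus, while in parental mRNA S. cerevisiae had 130.2 and 175 ppm against 304 and 228 ppm. Neither pair overlapped. The log2 difference was -0.80 ± 0.20 in the parents and 1.31 ± 0.18 in the hybrid, and differed by -2.11 ± 0.26 (adjusted p = 2.2e-05, limma). Of the 50 frames called in mRNA of both the parents and the hybrid, 46 had the same direction in both. They are 47.6% of the parental and 73.5% of the hybrid calls, against 986 of 1125 in the same direction, 43.6% and 69.1% over all genes. In RPF 16 frames were called in both, all in the same direction, which is 29.1% of the parental and 40% of the hybrid calls, against 305 of 332 in the same direction, 21.9% and 55.9% over all genes.

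**Figure D5:**
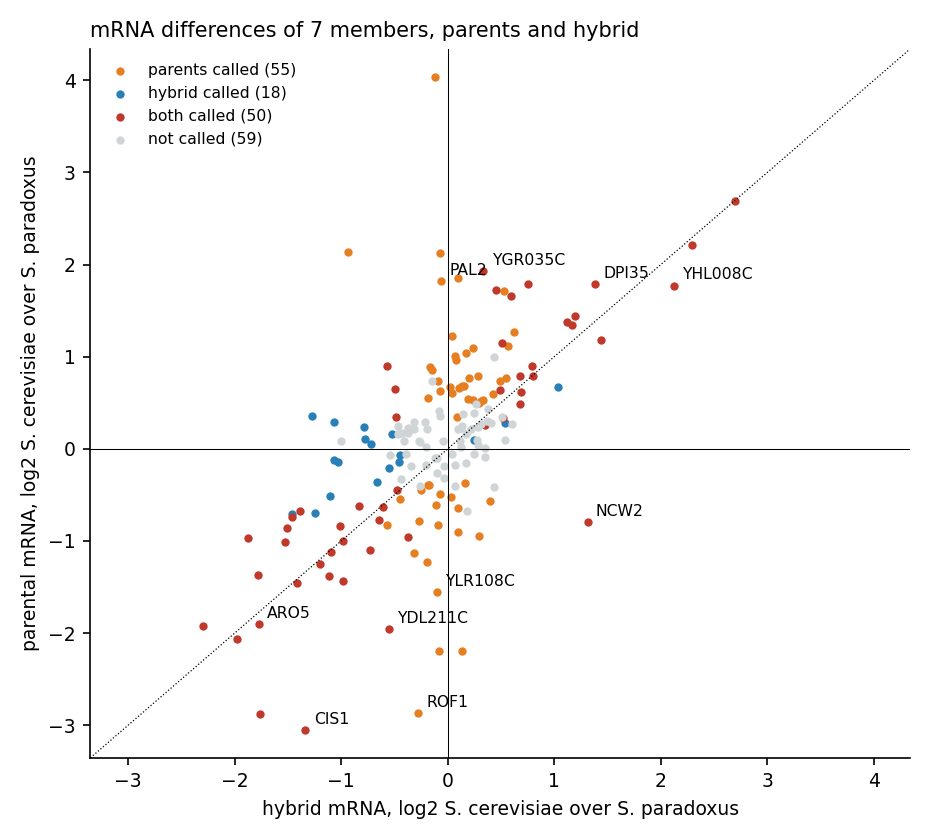
Species difference in parental mRNA (vertical) against the allele difference in hybrid mRNA (horizontal) for the 182 fast-evolving frames tested, both as log2 of S. cerevisiae over S. paradoxus. Frames on the dotted line differ alike in parents and hybrid, CIS1, ROF1, YLR108C and YDL211C lie below it, YGR035C and PAL2 above it, and NCW2 in the quadrant of opposite signs.

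By role, as read from R64 notes for 94 of the 200 frames, the groups are described by counts only, since they were formed after the values were seen. Each group's counts are to be read against the shares of all genes called, which for the hybrid were 35.8% in mRNA and 13.1% in RPF, and for the parents 56.8% in mRNA and 33.4% in RPF. Of 19 metabolic enzymes 17 were tested, and 11 were called in hybrid mRNA (3 higher and 8 lower for S. cerevisiae), 7 in hybrid RPF (1 and 6), 10 in parental mRNA (6 and 4) and 7 in parental RPF (3 and 4). Beside ARO5, YGL185C, similar to hydroxyacid dehydrogenases, was lower for S. cerevisiae in all 4 settings, by -1.5 in hybrid RPF, -1.09 in hybrid mRNA, -1.52 in parental RPF and -1.12 in parental mRNA. The glyoxylate reductase YPL113C was lower by -2.0 in hybrid RPF, -1.11 in hybrid mRNA and -1.58 in parental RPF, and its parental mRNA difference of -0.52 was not called. The aldehyde reductase YGL039W was lower by -0.49 in hybrid mRNA and higher by 0.65 in parental mRNA.

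Of 13 proteins of mitochondrial gene expression, all tested, 6 were called in hybrid mRNA (2 higher and 4 lower for S. cerevisiae), 0 in hybrid RPF by limma (2 at an unadjusted p under 0.05), 5 in parental mRNA (2 and 3) and 3 in parental RPF (all lower). MRX8 (YDR336W, a GTPase at the mitochondrial ribosome) was higher by 0.68 in hybrid and 0.79 in parental mRNA, and MRX9 (YDL027C, an inner membrane protein) by 0.79 and 0.90. MRX12 (YJR003C) was lower by -0.38 and -0.95. Of 15 other mitochondrial proteins 6 were called in hybrid mRNA and 6 in hybrid RPF, 3 higher and 3 lower in each, with 5 in parental mRNA (4 higher and 1 lower) and 3 in parental RPF (1 and 2). MCP1 (YOR228C, an outer membrane protein of lipid homeostasis) was lower for S. cerevisiae in the hybrid, by -1.81 in RPF and -1.28 in mRNA, and its parental differences of -0.07 and 0.36 were not called.

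Of 20 proteins of membrane traffic and organelle contacts 19 were tested. In hybrid mRNA 6 were called (2 higher and 4 lower for S. cerevisiae), in hybrid RPF 2 (1 and 1), in parental mRNA 11 (6 and 5) and in parental RPF 8 (6 and 2). CHM7 (YJL049W, a nuclear envelope ESCRT protein) was higher by 1.07 in hybrid RPF, 0.80 in hybrid mRNA and 0.79 in parental mRNA, and LAM5, a putative sterol carrier, by 1.0 in parental RPF and 0.89 in parental mRNA. EPO1 (YMR124W), which ties septins to the ER, was lower by -0.89 in parental RPF and -0.90 in parental mRNA. Of 11 proteins of ribosome quality control and RNA 10 were tested, and 4 were called in hybrid mRNA (1 higher and 3 lower for S. cerevisiae), 2 in hybrid RPF (1 and 1), 5 in parental mRNA (2 and 3) and 4 in parental RPF (1 and 3). RQT4 (YKR023W), a subunit of the complex that splits collided ribosomes, was lower for S. cerevisiae in all 4, by -1.10 in hybrid RPF, -0.64 in hybrid mRNA, -1.07 in parental RPF and -0.77 in parental mRNA.

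Of 11 proteins of signalling, transcription and protein turnover 10 were tested. In hybrid mRNA 1 was called and in hybrid RPF 0 by limma (1 at an unadjusted p under 0.05), in parental mRNA 7 (5 higher and 2 lower for S. cerevisiae) and in parental RPF 2, both lower, namely ROF1 and UCC1 (YLR224W, an F-box protein that limits citrate synthase, -1.36). Of 5 proteins of the actin cytoskeleton and the cell or spore wall 3 were tested, namely AIP5 (which promotes actin assembly), NCW2 and OSW7 (YFR039C), and 2 were called in hybrid mRNA (1 higher and 1 lower for S. cerevisiae), 0 in hybrid RPF by limma (1 at an unadjusted p under 0.05), 2 in parental mRNA (1 and 1) and 1 in parental RPF (lower). The median log2 RPF-to-mRNA ratio was -1.42 in the hybrid and -1.65 in the parents for membrane traffic, -1.46 and -1.72 for signalling and turnover, -1.22 and -1.51 for mitochondrial gene expression, -1.21 and -1.42 for other mitochondrial proteins, -1.08 and -1.17 for metabolic enzymes and -0.83 and -1.03 for ribosome quality control and RNA. These medians all lay below those of all genes, -0.67 and -0.75, while the 3 frames of the actin and wall group had -0.93 and -0.50.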

How the data were processed

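The analysis used 1 table of the whole series, in which the authors give each pair of orthologs 1 row. Per the file headers, the coverage (signal) values are base-level coverage summed over the unmasked bases of a gene, and the authors scaled the S. paradoxus columns to the S. cerevisiae total of each replicate. Omega, the ratio of Ka to Ks, and the authors' cis calls with their p-values, from a permutation test adjusted for false discovery, were used as deposited. Reads were handled with CASAVA 1.8.2 and Bowtie 0.12, per the submitters' processing notes. The authors' genome builds are not stated in the sources used here, and 24 further columns of per-sample values were not used.

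Coverage was divided by the column total (60.6 to 167 Mb), 0.5 ppm was added, and log2 ratios of S. cerevisiae to S. paradoxus were corrected for the unmasked bases of each species. Genes of at least 3 ppm on average (4544) were fitted with limma 3.58.1 in R 4.3.3, with weights from the spread of each of the 4 settings, a mean-dependent prior and 4 residual degrees of freedom, and p-values were adjusted over all genes. The fit was tested on simulated data, in which every gene of a setting had the same spread. That test does not cover the wider replicate differences of the fast-evolving frames in the hybrid and in parental RPF. The added 0.5 ppm shrinks the folds of frames near that value. A replicate listed at 0 can also widen them, as in hybrid RPF of YDL109C (-2.37, or -0.75 without replicate 2). Exact read numbers are unknown, so no counting interval is given. Alternatives were another added value, no filter, median-of-ratios scaling, 1 spread for all settings, no length correction, a replicate block and leaving out each replicate.

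The members and lists were chosen with earlier results of these data known. Named frames were the up to 6 called with the widest difference in each direction of each comparison at 20 ppm or more with replicates of the same sign, the 8 highest by mRNA level, the 8 highest and 8 lowest called RPF-to-mRNA ratios at 20 ppm or more, and 5 at the top and on either side of the omega threshold. Role groups were read from R64 notes after the values were seen, and frames named within them were chosen for illustration. Sequences and coordinates are from RefSeq R64.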

Additional observations from a re-analysis of the deposited data

Results flagged for a closer look

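Species differences that were not the same in the parents as in the hybrid were tested in the limma fit as the parental minus the hybrid log2 difference, with p-values adjusted over all genes, and the parents minus hybrid difference in the RPF-to-mRNA ratio likewise. Of the frames named for a wide difference, 10 of 20 passed in mRNA and 7 of 19 in RPF, and 1 of 16 named for its RPF-to-mRNA ratio passed. They had been picked for a wide value, and over the whole set 26.9% of fast-evolving frames against 34.4% of all genes passed in mRNA, 8.79% against 10.7% in RPF and 3.3% against 11.6% for the ratio. In mRNA, S. cerevisiae was relatively lower in the parents for ROF1 (YHR177W, -2.59), NCW2 (YLR194C, -2.11), CIS1 (YLR346C, -1.72), YLR108C (-1.45) and YDL211C (-1.41). It was relatively higher in the parents for PAL2 (YHR097C, 1.88), YIL055C (1.76), YGR035C (1.59), LOG1 (YJL055W, 1.04) and YLR326W (0.91). In RPF the difference was -2.44 for YER137C, -2.11 for ROF1, -1.89 for YLR108C, -1.48 for CIS1, 1.54 for YMR155W, 2.76 for YDL109C and 2.79 for YIR016W. YDL109C and YIR016W were listed at 0 for S. cerevisiae in 1 replicate of hybrid RPF each, and YER137C had 29.8 and 5.18 ppm for S. paradoxus there. YPR063C had a lower RPF-to-mRNA ratio in the parents than in the hybrid, by -0.56, and was above 0 in both.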

How the results depend on the processing

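With 1 spread for all settings, 31 rather than 68 were called in hybrid mRNA, 61 rather than 40 in hybrid RPF, 67 rather than 105 in parental mRNA and 1 rather than 4 for allele-specific translational efficiency. Over all genes these counts, in the same order, were 555 rather than 1629, 1131 rather than 594, 1701 rather than 2583 and 25 rather than 67. Leaving out single replicates gave 40 to 51 calls in hybrid mRNA, 13 to 40 in hybrid RPF, 71 in parental mRNA, 26 to 27 in parental RPF, 2 to 19 for allele-specific translational efficiency, 123 to 132 for the RPF-to-mRNA ratio in the hybrid and 162 to 165 in the parents. Fewer samples entered these fits. Median-of-ratios scaling gave 109 calls rather than 140 of the RPF-to-mRNA ratio in the hybrid and 136 rather than 171 in the parents, and turned the sign for LOG1 (YJL055W, 0.63 in the hybrid and 0.46 in the parents), YPL067C (0.33 in the parents), YHR127W (0.27) and YPL108W (0.23), because it moved the median of all genes. Over all genes it gave 2778 calls rather than 3277 in the hybrid and 3310 rather than 3830 in the parents. With the replicate number as a replicate block the counts in the same order as above were 69, 40, 105, 56, 3, 142 and 174, and the calls of YER137C in hybrid RPF and YNL046W in allele-specific translational efficiency were lost. The block also raised the calls of the parents minus hybrid difference in the RPF-to-mRNA ratio from 6 to 23, and those over all genes from 526 to 1058. Deviations of same-numbered samples had a correlation of 0.019 in the hybrid and 0.178 in the parents for species ratios, and of 0.161 and 0.186 for coverage of both species. The labels do not say whether the numbers pair the samples. The median mRNA level of the fast-evolving frames was 53.8 ppm per kb of annotated coding length, 71.0 over frames of at least 3 ppm and 54.2 over the 100 of highest omega, and the median RPF level was 20.9, 27.6 and 17.5. Of 84 named values, all kept their direction and call with 1 ppm added and without the filter. With 2 replicates a setting and no exact read numbers, single frames of low RPF coverage could not be measured closely.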
